A study of Mus musculus with 20 samples.

Results

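The genes described here are 33 genes of fatty acid oxidation and ketone body metabolism, chosen by name: each gene symbol, ignoring case, had to be listed both in the table of human genes from humanized mouse livers (60607 genes) and in the table of mouse genes from WT mouse livers (55335 genes). They comprise 19 genes of mitochondrial oxidation, 8 peroxisomal genes, 2 genes of ketone body metabolism and 4 genes of the PPAR alpha response. The genes were chosen with earlier results of these data known. Their counts beside the shares of all genes are therefore descriptions and no independent test. All 33 passed, in both tables, the filter on low values, a mean of at least 1 TPM over the livers of a table (TPM are reads per gene length, scaled to a total of 1000000 transcripts in each library). TPM can be compared between livers of a set, but not between the human and the mouse table, which were normalized separately. Between genes of a library they depend on the gene lengths used, which the sources used here do not give.

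Liver RNA was sequenced from 20 mice. Humanized mice were TK-NOG mice, highly immune-deficient animals that express a herpes simplex virus thymidine kinase from the mouse albumin promoter. They were given ganciclovir at an age of 8 to 9 weeks to remove the cells with the kinase. They then received cryopreserved primary human hepatocytes. Other host liver cells remained, and the paper describes the livers as chimeric, with mouse hepatocytes beside the human ones. WT mice were male C57BL/6 mice without a transplant. Mice of both kinds received 2000000000 pfu of an adenovirus intravenously. It carried either a short hairpin RNA against HuR (HuR KD, 4 humanized and 6 WT mice) or a control (LacZ, 4 humanized and 6 WT mice). The hairpin was against human HuR in humanized mice and against mouse HuR in WT mice. All livers were taken after 7 days and a fast of 4 h. The numbers of hepatocyte donors and of separate infections were not stated in the sources used here, and p-values measure the spread between these livers. Host strain, recipient procedure, hairpin, table and annotation all differ between the humanized and WT mice and cannot be told apart from species.

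Mitochondrial beta-oxidation starts with the carnitine shuttle, which brings long acyl chains across the inner membrane, and goes on with acyl-CoA dehydrogenases, hydratases, hydroxyacyl-CoA dehydrogenases and thiolases, whose electrons enter the respiratory chain through the electron transfer flavoprotein. Peroxisomes shorten very long and branched chains and bile acid side chains, and hepatocytes turn the resulting acetyl-CoA into ketone bodies during fasting. PPAR alpha, a nuclear receptor for fatty acids, raises many of these genes in the fasted liver through direct repeats of AGGTCA, and HuR is an RNA-binding protein that recognises AU-rich stretches in the 3′ UTRs of mRNAs and often lengthens their life.

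Promoter windows are shown for Slc25a20, Acox2, Etfa and Echs1, the 4 member genes whose mouse RefSeq window on GRCm38.p6 (250 bases before and 50 after a listed transcription start) held a direct repeat of AGGTCA with 1 base between the copies and at most 2 mismatches in the 12 fixed letters, on either strand. The windows lie at chr9:108661886-108662185 on the plus strand (Slc25a20), chr14:8258790-8259089 on the minus strand (Acox2), chr9:55512194-55512493 on the minus strand (Etfa) and chr7:140116372-140116671 on the minus strand (Echs1). They are written 5′ to 3′ in the direction of the gene, and capitals mark the repeat, which starts 7 bases after the start in Slc25a20, 10 bases after it in Acox2, 77 bases before it, on the other strand, in Etfa and 83 bases before it in Echs1.
Slc25a20: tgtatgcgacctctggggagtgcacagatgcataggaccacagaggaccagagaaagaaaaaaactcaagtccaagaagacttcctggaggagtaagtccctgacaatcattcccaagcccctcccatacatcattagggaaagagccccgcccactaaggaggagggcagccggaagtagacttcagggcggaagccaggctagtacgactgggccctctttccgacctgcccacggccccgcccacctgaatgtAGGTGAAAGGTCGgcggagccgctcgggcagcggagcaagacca
Acox2: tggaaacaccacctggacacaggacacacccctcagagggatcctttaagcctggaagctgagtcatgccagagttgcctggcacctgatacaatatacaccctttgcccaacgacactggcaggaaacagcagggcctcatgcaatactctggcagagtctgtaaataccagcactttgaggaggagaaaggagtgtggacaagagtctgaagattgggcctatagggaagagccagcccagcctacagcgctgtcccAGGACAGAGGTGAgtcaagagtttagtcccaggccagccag
Etfa: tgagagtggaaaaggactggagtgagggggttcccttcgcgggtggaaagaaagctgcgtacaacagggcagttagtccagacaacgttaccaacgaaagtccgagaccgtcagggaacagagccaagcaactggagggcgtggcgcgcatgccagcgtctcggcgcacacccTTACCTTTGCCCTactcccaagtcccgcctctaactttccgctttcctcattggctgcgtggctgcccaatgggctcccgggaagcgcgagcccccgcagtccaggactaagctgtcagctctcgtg
Echs1: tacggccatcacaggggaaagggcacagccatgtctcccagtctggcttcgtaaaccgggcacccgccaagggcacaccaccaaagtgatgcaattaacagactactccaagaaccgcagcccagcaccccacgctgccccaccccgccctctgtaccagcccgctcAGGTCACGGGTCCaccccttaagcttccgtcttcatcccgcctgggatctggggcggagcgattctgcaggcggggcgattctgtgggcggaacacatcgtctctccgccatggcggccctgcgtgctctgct

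Of the 33 genes, 29 had a window, 32 windows in all, and 4 windows (12.5%) held the repeat. Among all 32851 mouse windows the share was 3.86%. ACAA2, ACAT1, DECR1 and HSD17B4 had no entry. A match is a description of the letters and not a binding site, and human windows were not analysed here.

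AU-rich letters were counted in the mouse 3′ UTRs of GENCODE M21, in the coding transcript with the longest coding sequence of each gene. The pentamer ATTTA was present in 18 of 33 members (54.5%) and in 66.3% of 10969 protein-coding genes tested, whose UTRs were longer (median 959 bases against 747). The longer TATTTAT was present in 3 of 33 members (9.09%) and in 27.1% of the genes tested. These 3 sites are shown because they are the only matches to the longer motif among the members, with the motif in capitals and the first base at position 1274 of the 3′ UTR of Cpt1a, 210 of Cpt2 and 1945 of Pdk4.
Cpt1a: ttaaatcatgTATTTATtttccagtgc
Cpt2: aactcagctgTATTTATtgtttaaata
Pdk4: ccttccctatTATTTATgaacccatgg

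Whole reads recovered from the steps of the TPM gave a depth of 2670469 to 20302454 reads per library in the humanized mouse livers, counted on human genes only. In the WT mouse livers the depth was 1423985 to 44668272, and all but 1 library had at least 12960373. The least covered member values rested on 83 reads (humanized) and 11 reads (WT). Humanized HuR KD 4 and LacZ 2, which had the most reads (20302454 and 19891555, the others at most 8342241), stood apart from the other humanized mouse livers. They correlated best with each other (r = 0.965 over log2 values of all genes tested, at most 0.931 for any other nearest pair), and mitochondrial ribosomal RNA made up 49.1% of the TPM of each, against 27.2% to 36.0% in the others. Among WT mouse livers, HuR KD 6 and the shallow LacZ 2 stood apart. Hepatocyte markers summed to 41111 TPM or more in all livers. In the humanized mouse table, markers of macrophages, T and NK cells, endothelial cells and stellate cells stayed at or under 3.59 TPM in sum. Cholangiocyte markers of this table summed to 5.26 to 29.4 TPM with HuR KD and 11.5 to 44.4 TPM with LacZ. Of the 5, 4 were tested and 2 were lower at an unadjusted limma p under 0.05 (7.87% of all genes). This table holds human genes only, so its low sums say nothing about mouse host cells of these types. In WT mouse livers no tested marker of hepatocytes, T and NK cells or cholangiocytes was called at an unadjusted limma p under 0.05. At this threshold 3 of 7 macrophage markers and 2 of 5 stellate cell markers were lower with HuR KD (6.94% of all genes). Among endothelial markers 1 of 5 was higher (9.09% of all genes). The part of these cells in the results was not tested, and fewer cells of a type and less RNA per cell cannot be told apart in these bulk samples.

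HuR itself was lower in every HuR KD liver. ELAVL1, which encodes HuR, stood at 4.05, 2.37, 3.54 and 3.90 TPM in the humanized HuR KD livers 1 to 4 and at 5.76, 4.77, 6.17 and 5.99 TPM in the LacZ livers, or 61.0% of the LacZ mean (log2 fold change −0.59 ± 0.17 SE, limma adjusted p = 0.214, two-sided exact permutation p = 0.0286, the smallest that 70 groupings allow). Its least covered value there rested on 34 reads, and the fall did not pass after adjustment. Elavl1 ranged from 3.72 to 5.62 TPM (median 4.97) in 6 WT HuR KD livers and from 8.58 to 10.7 TPM (median 9.49) in 6 LacZ livers, or 51.7% of the LacZ mean (log2 fold change −0.83 ± 0.09 SE, limma adjusted p = 0.00105, two-sided exact permutation p = 0.00216, the smallest that all groupings of the 12 livers allow). The knockdown effects on HuR in the humanized and WT mice differed by 0.24 ± 0.17 (SE) on the log2 scale (limma interaction, adjusted p = 0.477), so that a difference in the strength of the knockdown was not detectable.

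In humanized mouse livers, 9 of 19 genes of mitochondrial fatty acid oxidation rose with HuR KD, 1 fell and 9 did not pass an unadjusted limma p under 0.05, the threshold of the study. Of all 33 genes, 13 rose and 1 fell at this threshold, and 0 passed an adjusted p under 0.05 (smallest adjusted p = 0.121). The exact permutation test, which is given for each gene beside the adjusted limma p, passed the same threshold for 9 of these 14 members. With 4 against 4 livers it can pass only where the groups do not overlap. These 9 are therefore among the members without overlap counted below and are no further support. Among all 12738 human genes tested, 3.6% rose, 7.87% fell and 0.212% passed the adjusted threshold. The log2 fold change was above 0 for 28 of 33 members, against 42.7% of all genes tested, with a median of 0.31 over the members and −0.05 over all genes. In 10 members every HuR KD liver lay above every LacZ liver, which held for 2.13% of all genes tested, and in 0 members did every HuR KD liver lie below (5.03% of all genes tested). With median-of-ratios scaling, which splits all called genes into 791 higher and 876 lower in place of 458 and 1003, 16 members were higher and 0 lower (6.21% and 6.88% of all genes), and SLC25A20, ETFDH and ACAA2 passed an adjusted p under 0.05 (smallest adjusted p = 0.0382). Without the 2 livers that stood apart, 12 members were higher and 1 lower (4.48% and 11.2% of all genes), all of them among the 14 called with these livers included.

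**Figure D1:**
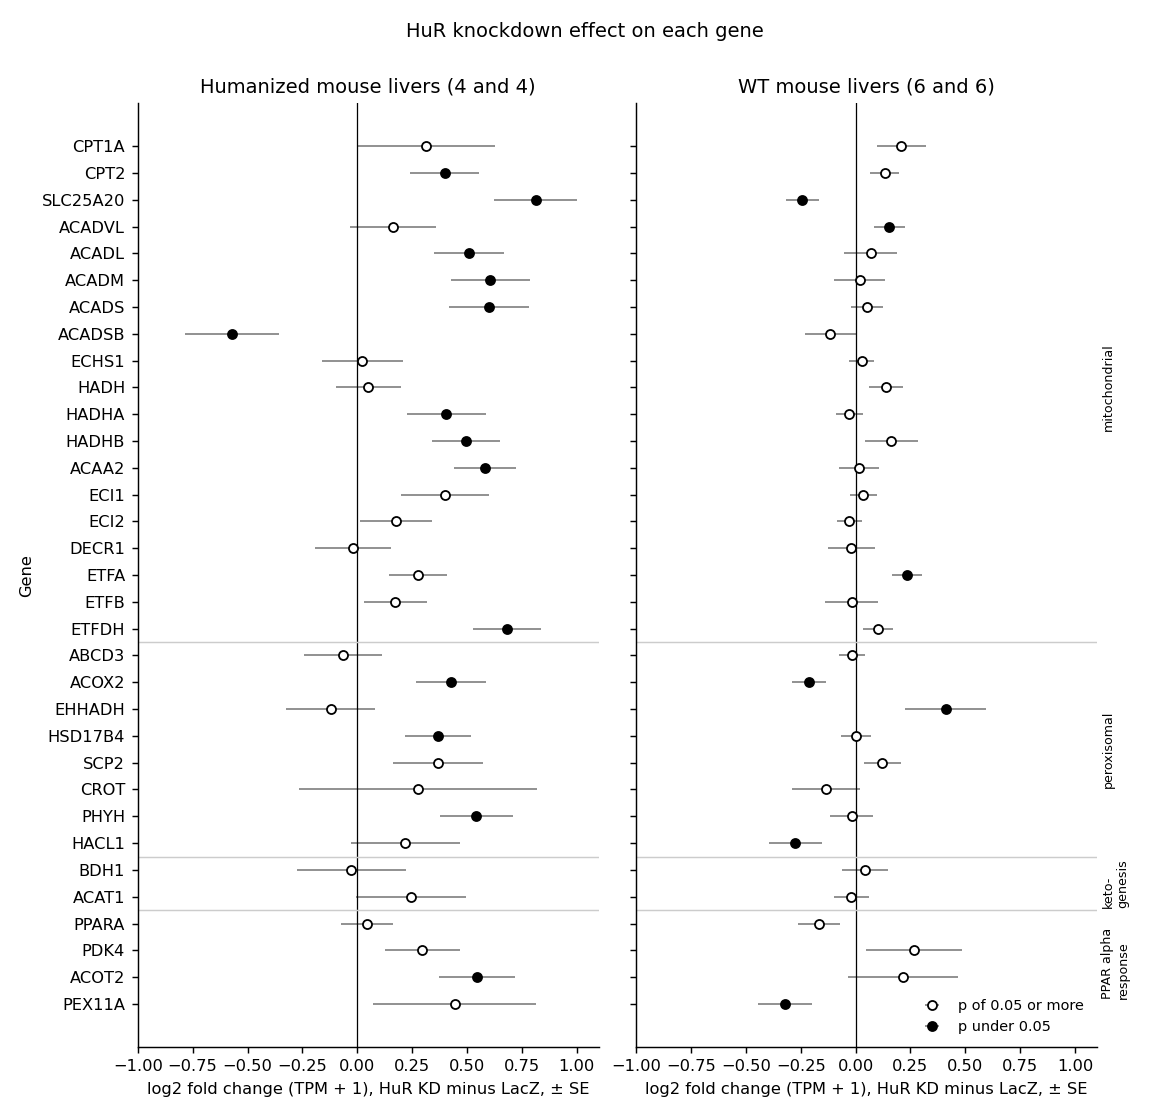
Log2 fold change of each of the 33 genes with HuR KD against LacZ (horizontal axis, log2 of TPM + 1, bars are ± 1 SE from limma) in 4 and 4 humanized (left) and 6 and 6 WT mouse livers (right), with filled points at an unadjusted p under 0.05. Most humanized points lie right of 0 (28 of 33), and the WT points gather around 0 (19 of 33 above it).

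The carnitine shuttle held the gene with the largest rise among the members. SLC25A20, the carnitine-acylcarnitine translocase that carries acylcarnitines across the inner membrane, stood at 146, 136, 192 and 112 TPM in the humanized HuR KD livers 1 to 4 and at 87.9, 64.7, 93.4 and 83.0 TPM in the LacZ livers. All 4 HuR KD livers lay above all 4 LacZ livers. The HuR KD mean was 178% of the LacZ mean (log2 fold change 0.81 ± 0.19 SE, limma adjusted p = 0.130, two-sided exact permutation p = 0.0286), and the rise kept its call under all 15 alternative settings, between 0.67 and 0.93. CPT2, which turns acylcarnitines back into acyl-CoA in the matrix, stood at 21.1, 23.8, 31.9 and 24.8 TPM against 16.3, 21.8, 19.4 and 18.2 TPM. In 3 of 4 HuR KD livers it exceeded every LacZ liver (log2 fold change 0.40 ± 0.16 SE, limma adjusted p = 0.380, exact permutation p = 0.0571), and the call was lost without HuR KD 3 or 4 or LacZ 1, 3 or 4, at 0.29 to 0.41. CPT1A, the rate-setting first enzyme of the shuttle, stood at 41.9, 36.1, 49.2 and 79.5 TPM against 30.2, 71.2, 34.6 and 32.8 TPM. The highest value of each of its groups came from the livers that stood apart, and the difference did not pass the test (0.31 ± 0.32 SE, exact permutation p = 0.429), although it did without LacZ 2 (0.59) and with the livers that stood apart as a block (0.31).

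Of 5 acyl-CoA dehydrogenases, which carry out the first oxidation step, 3 rose in humanized mouse livers and 1 fell at an unadjusted limma p under 0.05. Over all genes tested, 3.6% rose and 7.87% fell. Differences between the dehydrogenases were not tested. ACADM, for medium chains, stood at 118, 109, 115 and 82.7 TPM in the humanized HuR KD livers and at 66.4, 53.6, 84.9 and 73.8 TPM in the LacZ livers. Only HuR KD 4 lay within the LacZ range (log2 fold change 0.61 ± 0.18 SE, limma adjusted p = 0.234, exact permutation p = 0.0571). ACADS, for short chains, stood at 66.6, 78.6, 90.9 and 72.5 TPM against 39.2, 58.0, 63.6 and 43.9 TPM. The groups of ACADS did not overlap (0.60 ± 0.18 SE, limma adjusted p = 0.251, exact permutation p = 0.0286). ACADL, for long chains, stood at 16.1, 13.3, 17.0 and 12.3 TPM against 10.9, 8.32, 9.02 and 11.8 TPM. Its groups did not overlap either (0.51 ± 0.16 SE, limma adjusted p = 0.262, exact permutation p = 0.0286), and the calls of ACADM, ACADS and ACADL held under all 15 alternative settings.

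ACADVL, for very long chains, stood at 277, 248, 291 and 194 TPM against 218, 166, 248 and 277 TPM (0.16 ± 0.20 SE, exact permutation p = 0.429), with overlapping groups. ACADSB, the dehydrogenase of short branched acyl-CoA from isoleucine breakdown, was the single member that fell. Its values were 37.7, 27.4, 30.8 and 50.5 TPM with HuR KD and 44.0, 66.1, 47.1 and 59.7 TPM with LacZ (−0.57 ± 0.21 SE, limma adjusted p = 0.349, exact permutation p = 0.0857). HuR KD 4 lay above LacZ 1 and 3, and the call was lost without HuR KD 2 or 3 or LacZ 2 or 4 (−0.52 to −0.45) and with median-of-ratios scaling (−0.50).

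Both subunits of the mitochondrial trifunctional protein, which completes the cycle for long chains, were called higher. HADHA, with the hydratase and dehydrogenase activities, stood at 190, 165, 212 and 140 TPM in the humanized HuR KD livers and at 125, 104, 152 and 150 TPM in the LacZ livers. HuR KD 4 lay within the LacZ range (log2 fold change 0.41 ± 0.18 SE, limma adjusted p = 0.434, exact permutation p = 0.0857), and the call was lost without HuR KD 1, 2 or 3 or LacZ 1 or 2, at 0.30 to 0.43. HADHB, with the thiolase activity, stood at 168, 146, 185 and 134 TPM against 110, 93.6, 130 and 113 TPM. These groups did not overlap (0.50 ± 0.15 SE, limma adjusted p = 0.259, exact permutation p = 0.0286), and the call held under all 15 settings. In the mouse genome (GRCm38, GENCODE M21) the 2 genes are divergent neighbours on chromosome 5, Hadha from 30118304 to 30155162 on the minus strand and Hadhb from 30155248 to 30184593 on the plus strand, with 86 bases between their annotated starts. The ratio of HADHB to HADHA TPM was 0.872 to 0.956 in the humanized HuR KD livers and 0.754 to 0.899 in the LacZ livers. The ratio of Hadhb to Hadha TPM was 0.456 to 0.617 in the WT HuR KD livers and 0.379 to 0.545 in the LacZ livers, and the groups overlapped in both sets.

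ACAA2, the thiolase for medium chains, rose from 164, 190, 186 and 206 TPM in the humanized LacZ livers to 279, 265, 333 and 246 TPM with HuR KD. The groups did not overlap (log2 fold change 0.58 ± 0.14 SE, limma adjusted p = 0.143, exact permutation p = 0.0286), and the call held under all 15 settings. The enzymes between dehydrogenase and thiolase for shorter chains differed by less than their spread. ECHS1, the short-chain enoyl-CoA hydratase, stood at 565 to 862 TPM with HuR KD and 568 to 838 TPM with LacZ (0.02 ± 0.18 SE, exact permutation p = 0.943). HADH, the short-chain hydroxyacyl-CoA dehydrogenase, stood at 9.22 to 13.6 TPM and 9.55 to 12.1 TPM (0.05 ± 0.15 SE, exact permutation p = 0.714).

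None of the 3 enzymes that handle double bonds of unsaturated chains passed the test in humanized mouse livers. The isomerase ECI1 stood at 24.0, 26.3, 35.8 and 35.4 TPM with HuR KD and 17.3, 28.7, 25.5 and 19.9 TPM with LacZ (log2 fold change 0.40 ± 0.20 SE, exact permutation p = 0.143), and it passed the test under 5 of 15 settings (0.40 to 0.51), among them median-of-ratios scaling (0.48). The isomerase ECI2 (0.18 ± 0.16 SE, exact permutation p = 0.371) and the reductase DECR1 (−0.02 ± 0.17 SE, exact permutation p = 0.943) had overlapping groups.

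The route of electrons to the respiratory chain held a rise of ETFDH, the membrane-bound oxidoreductase that passes electrons from the flavoprotein to ubiquinone. ETFDH stood at 89.5, 82.4, 106 and 82.9 TPM in the humanized HuR KD livers and at 59.8, 44.3, 64.5 and 55.5 TPM in the LacZ livers. The lowest HuR KD liver lay well above the highest LacZ liver, the HuR KD mean was 161% of the LacZ mean (log2 fold change 0.68 ± 0.15 SE, limma adjusted p = 0.121, exact permutation p = 0.0286), and the call held under all 15 settings. ETFA, the alpha subunit of the flavoprotein, stood at 99.0, 97.7, 123 and 93.3 TPM against 80.0, 79.4, 90.6 and 88.6 TPM. Its groups did not overlap, but the difference did not pass the limma threshold (0.28 ± 0.13 SE, exact permutation p = 0.0286), which it did under 4 of 15 settings (0.28 to 0.35), among them median-of-ratios scaling and voom, limma's method for read counts. The beta subunit ETFB stood at 18.0 to 22.9 TPM with HuR KD and 15.2 to 20.2 TPM with LacZ (0.17 ± 0.14 SE, exact permutation p = 0.2).

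Of 8 peroxisomal genes, 3 rose in humanized mouse livers and 0 fell at an unadjusted limma p under 0.05, and 0 passed after adjustment. Over all genes tested, 3.6% rose and 7.87% fell. The median log2 fold change was 0.32 over these 8 genes and −0.05 over all genes. PHYH, which starts the alpha-oxidation of phytanic acid, stood at 216, 185, 192 and 141 TPM with HuR KD and 120, 107, 127 and 146 TPM with LacZ. Only HuR KD 4 lay within the LacZ range (0.54 ± 0.17 SE, limma adjusted p = 0.251, exact permutation p = 0.0571), and the call held under all 15 settings. ACOX2, the oxidase for branched chains and bile acid intermediates, stood at 63.1, 52.1, 69.9 and 49.5 TPM against 45.3, 35.4, 48.0 and 44.1 TPM, without overlap (0.43 ± 0.16 SE, limma adjusted p = 0.344, exact permutation p = 0.0286). Without HuR KD 1 or 3 or LacZ 2 the limma p of ACOX2 was above the threshold, at 0.34 to 0.39. HSD17B4, the D-bifunctional protein of the same route, stood at 77.9, 66.7, 95.3 and 72.3 TPM against 58.2, 52.0, 63.6 and 66.5 TPM. Its groups were also separate, by little (0.37 ± 0.15 SE, limma adjusted p = 0.395, exact permutation p = 0.0286), and the call was lost without HuR KD 1 or 3 or LacZ 1, 2 or 3 (0.27 to 0.39) and without both livers that stood apart (0.33).

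The other 5 peroxisomal genes did not pass the test in humanized mouse livers. SCP2, a lipid transfer protein with a thiolase form, stood at 78.7, 79.3, 103 and 117 TPM with HuR KD and 56.2, 91.9, 84.1 and 61.4 TPM with LacZ (log2 fold change 0.37 ± 0.21 SE, exact permutation p = 0.171), and it passed the test under 3 of 15 settings (0.37 to 0.48). EHHADH, the L-bifunctional protein, stood at 173 to 213 TPM and 141 to 259 TPM (−0.12 ± 0.20 SE, exact permutation p = 0.743), and ABCD3, a transporter of acyl-CoA into the peroxisome, at 53.2 to 62.8 TPM and 47.1 to 82.4 TPM (−0.07 ± 0.18 SE, exact permutation p = 0.743). CROT, which makes medium-chain acylcarnitines for export, stood at 23.4, 16.4, 17.5 and 4.56 TPM against 17.1, 3.93, 10.2 and 19.5 TPM, where the livers that stood apart had the lowest value of each group (0.28 ± 0.54 SE, exact permutation p = 0.629). HACL1, the lyase of alpha-oxidation, stood at 30.6 to 63.6 TPM and 27.4 to 48.7 TPM (0.22 ± 0.25 SE, exact permutation p = 0.4).

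Neither of the 2 genes of ketone body metabolism passed the test in humanized mouse livers. ACAT1, the mitochondrial acetoacetyl-CoA thiolase, stood at 119, 136, 175 and 218 TPM with HuR KD and 100, 141, 196 and 113 TPM with LacZ (log2 fold change 0.24 ± 0.25 SE, exact permutation p = 0.4). BDH1, which converts acetoacetate to beta-hydroxybutyrate, was the least abundant of the 33 genes in this table, at 4.35 to 6.23 TPM and 2.61 to 6.57 TPM (−0.03 ± 0.25 SE, exact permutation p = 0.943).

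Among the 4 genes of the PPAR alpha response, ACOT2, a mitochondrial acyl-CoA thioesterase, was called higher. It stood at 63.0, 65.2, 91.4 and 56.9 TPM in the humanized HuR KD livers and at 39.4, 45.4, 54.2 and 47.1 TPM in the LacZ livers, without overlap (log2 fold change 0.55 ± 0.17 SE, limma adjusted p = 0.264, exact permutation p = 0.0286). Its call held under all 15 settings, but ACOT2 has close paralogs whose reads the counting may have split, so its value is uncertain. The receptor gene PPARA stood at 20.1 to 21.8 TPM with HuR KD and 18.8 to 22.1 TPM with LacZ (0.04 ± 0.12 SE, exact permutation p = 0.543). PDK4, a kinase that shuts off pyruvate oxidation, stood at 73.4, 78.8, 100.2 and 95.0 TPM against 56.6, 63.6, 78.2 and 85.0 TPM (0.30 ± 0.17 SE, exact permutation p = 0.143), and it passed the test with median-of-ratios scaling and with voom (0.37 in both). PEX11A, a peroxisome division factor, stood at 27.1, 28.0, 36.9 and 14.7 TPM against 19.9, 8.59, 23.4 and 28.0 TPM (0.44 ± 0.37 SE, exact permutation p = 0.429). The livers that stood apart again had the lowest PEX11A of each group, and with them as a block PEX11A passed the test.

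**Figure D2:**
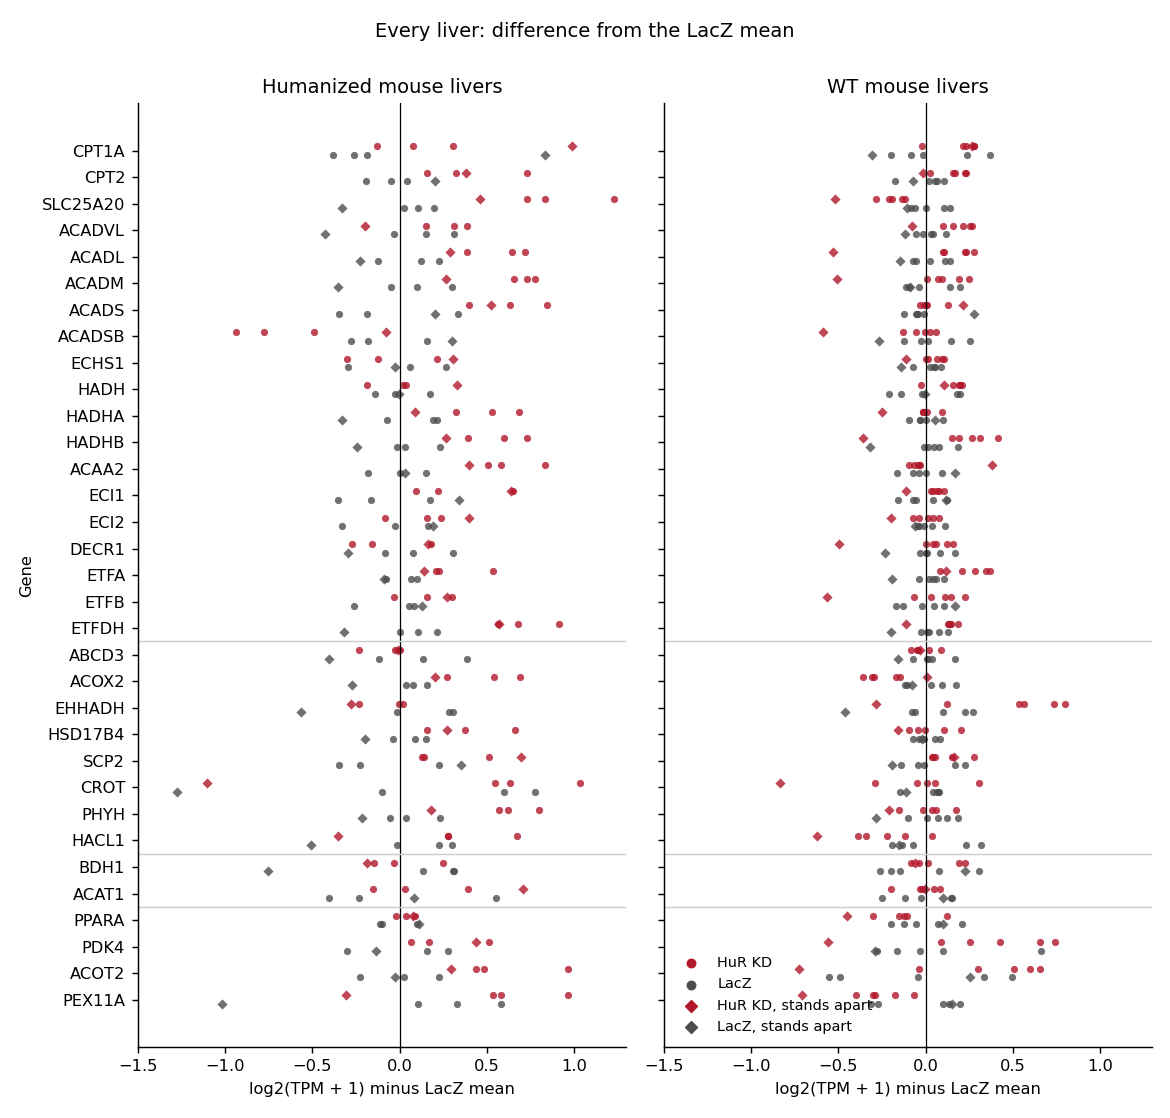
Each liver's log2(TPM + 1) minus the mean of the LacZ livers of its set (horizontal axis) for the 33 genes, with HuR KD in red, LacZ in grey and the livers that stand apart as diamonds. The red diamond and the grey diamond of the humanized mice lie together at the low end of CROT and PEX11A, and the red diamond of the WT mice lies at the low end of many genes.

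Averaged over the 33 genes, as log2(TPM + 1) relative to the mean of each gene in its set, the humanized HuR KD livers 1 to 4 stood at 0.13, 0.04, 0.35 and 0.06, and the LacZ livers at −0.24, −0.30, 0.0047 and −0.04. The lowest HuR KD liver lay just above the highest LacZ liver. The same average in WT mouse livers ran from −0.25 to 0.12 (median 0.06) with HuR KD and from −0.08 to 0.09 (median −0.02) with LacZ. HuR KD 6 gave the −0.25, and the other 5 lay at −0.01 to 0.12, within or close above the LacZ range.

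In WT mouse livers, 3 of the 33 genes rose and 4 fell at an unadjusted limma p under 0.05. Among all 15090 mouse genes tested, 9.09% rose and 6.94% fell. The exact permutation test passed the same threshold for 5 of these 7 members, a count that was not made over all genes. After adjustment 0 members passed (smallest adjusted p = 0.119), against 0.888% of all genes. With median-of-ratios scaling 2 members were higher and 5 lower (7.83% and 8.47% of all genes), and 1 of them, Slc25a20, passed after adjustment (adjusted p = 0.0300). The log2 fold change was above 0 for 19 of 33 members and for 56.8% of all genes, with medians of 0.02 and 0.03. In 0 members did every HuR KD liver lie above every LacZ liver (1.25% of all genes), and in 1 member did every HuR KD liver lie below (1.23% of all genes). The standard errors were smaller than in the humanized mice, with a median over the members of 0.09 against 0.18 on the log2 scale. The counts moved with single livers, for the members and for all genes. Without HuR KD 6, 8 members were higher and 3 lower (12.4% and 6.5% of all genes), and without HuR KD 6 and LacZ 2 these were 7 and 2 (15.4% and 7.8%). Only 1 member was higher without any one of HuR KD 1, 4 or 5 or LacZ 2 or 3, where 6.77% to 10.3% of all genes were.

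The single member without overlap was the translocase of the carnitine shuttle. Slc25a20 ranged from 76.9 to 102 TPM (median 96.2) in the WT HuR KD livers and from 103 to 122 TPM (median 109) in the LacZ livers. The highest HuR KD liver lay just below the lowest LacZ liver. The HuR KD mean was 84.5% of the LacZ mean (log2 fold change −0.24 ± 0.08 SE, limma adjusted p = 0.140, two-sided exact permutation p = 0.00216), and the fall held under all 18 alternative settings, between −0.27 and −0.19. Cpt1a (0.21 ± 0.11 SE, exact permutation p = 0.123) and Cpt2 (0.13 ± 0.07 SE, exact permutation p = 0.0541) did not pass the test, although 4 of 6 HuR KD livers had more Cpt2 than any LacZ liver. Cpt1a passed without HuR KD 2, LacZ 4 or LacZ 5 (0.25 to 0.28), and Cpt2 without HuR KD 3, without HuR KD 6 or without HuR KD 6 and LacZ 2 (0.15 to 0.16).

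Etfa, the alpha subunit of the electron transfer flavoprotein, rose in the WT mice, where it ranged from 198 to 241 TPM (median 222) with HuR KD and from 164 to 201 TPM (median 191) with LacZ. Only 1 HuR KD liver lay within the LacZ range. The log2 fold change was 0.23 ± 0.07 (SE, limma adjusted p = 0.119, exact permutation p = 0.00433), and the call held under all 18 settings. Etfdh ranged from 145 to 178 TPM (median 172) and from 136 to 171 TPM (median 158), and 5 of 6 HuR KD livers exceeded every LacZ liver (0.10 ± 0.07 SE, exact permutation p = 0.145). Without HuR KD 6, its lowest liver, Etfdh passed the test at 0.15, and without LacZ 2 as well at 0.11.

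Acadvl ranged from 498 to 633 TPM (median 598) with HuR KD and from 485 to 570 TPM (median 529) with LacZ, and 4 of 6 HuR KD livers exceeded every LacZ liver. Its rise was small (log2 fold change 0.15 ± 0.07 SE, limma adjusted p = 0.304, exact permutation p = 0.0411), and the call was lost in 10 of 12 fits without a single liver, all but those without HuR KD 6 or LacZ 5, at 0.13 to 0.16, and with median-of-ratios scaling (0.14). The dehydrogenases for shorter chains that rose in humanized mouse livers had overlapping groups here, with log2 fold changes of 0.07 ± 0.12 (SE) for Acadl, 0.02 ± 0.12 for Acadm and 0.05 ± 0.07 for Acads. Without HuR KD 6, Acadl passed the test at 0.19 and Hadhb at 0.27, and without LacZ 2 as well at 0.16 and 0.20. Hadh (0.14 ± 0.08 SE) passed without LacZ 1 or LacZ 6 (0.18 and 0.17).

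Ehhadh, the peroxisomal L-bifunctional protein, had the largest log2 fold change of the members in WT mice. Its level ranged from 721 to 1531 TPM (median 1287) with HuR KD and from 638 to 1062 TPM (median 893) with LacZ. The HuR KD livers were widely spread, 4 of 6 above every LacZ liver (0.41 ± 0.18 SE, limma adjusted p = 0.300, exact permutation p = 0.0693), and the call was lost without HuR KD 1, 3, 4 or 5 or LacZ 1, 2, 3 or 5 (0.32 to 0.43) and without a filter on TPM (0.41). Acox2 moved the other way, from 189 to 231 TPM (median 201) with LacZ to 159 to 205 TPM (median 174) with HuR KD. Its groups overlapped, since HuR KD 6 lay within the LacZ range (−0.21 ± 0.08 SE, limma adjusted p = 0.194, exact permutation p = 0.0216), and the call held under all 18 settings. Hacl1 ranged from 33.9 to 54.1 TPM (median 43.2) with HuR KD and from 46.1 to 65.8 TPM (median 49.0) with LacZ (−0.28 ± 0.12 SE, limma adjusted p = 0.287, exact permutation p = 0.0628). The call of Hacl1 was lost without HuR KD 1, 2, 5 or 6 or LacZ 1 or 3, at −0.29 to −0.21, and without both HuR KD 6 and LacZ 2 (−0.24).

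Pex11a fell in WT mouse livers, from 99.2 to 142 TPM (median 134) with LacZ to 75.3 to 118 TPM (median 100.4) with HuR KD. The groups overlapped (log2 fold change −0.32 ± 0.12 SE, limma adjusted p = 0.214, exact permutation p = 0.0303), and the call was lost without both HuR KD 6 and LacZ 2 (−0.21). Ppara ranged from 115 to 172 TPM (median 143) and from 137 to 182 TPM (median 159) with HuR KD and LacZ (−0.17 ± 0.10 SE, exact permutation p = 0.136), and it passed the test without HuR KD 1 (−0.23) and with median-of-ratios scaling (−0.18). Pdk4, at 4.23 to 11.9 TPM and 5.31 to 11.2 TPM, was the least abundant member in these livers (0.27 ± 0.22 SE, exact permutation p = 0.288), and it passed the test without HuR KD 6 (0.43). Both genes of ketone body metabolism stayed close to 0 on the log2 scale, at 0.04 ± 0.11 (SE) for Bdh1 and −0.02 ± 0.08 for Acat1.

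A direct comparison of the knockdown effects was made over 8192 gene pairs of identical symbol, in a joint limma fit with an interaction term. The effect in humanized minus that in WT mouse livers was above 0 for 26 of 33 members and for 38.1% of all pairs. An adjusted p under 0.05 was reached by 4 members and by 4.99% of all pairs, and an unadjusted p under 0.05 by 11 members and by 19.7% of all pairs. Among the 4, SLC25A20 differed most, by 1.06 ± 0.18 (SE, adjusted p = 0.00215), followed by ACOX2 (0.64 ± 0.16, adjusted p = 0.0217), ETFDH (0.58 ± 0.15, adjusted p = 0.0294) and ACAA2 (0.56 ± 0.16, adjusted p = 0.0444). PEX11A (0.77 ± 0.35 SE, adjusted p = 0.214) and ACADM (0.59 ± 0.21 SE, adjusted p = 0.103) had differences of similar size that did not pass. SLC25A20 and ACOX2 were called in both sets, in opposite directions. For ETFDH and ACAA2 the humanized rise passed the test and the WT difference did not. The interactions of SLC25A20 and ACOX2 passed under all 28 alternative settings. That of ETFDH was lost without humanized HuR KD 3 or WT LacZ 6 (0.50 and 0.55, each with an adjusted p of 0.0528), and that of ACAA2 was lost under 17 of 28 settings, with an adjusted p of up to 0.0915. The count of 4 became 7 without humanized HuR KD 4 (7.6% of all pairs) or without both humanized livers that stood apart (11.8%), and 2 without humanized HuR KD 3 (5.71%) or WT LacZ 6 (3.96%).

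**Figure D3:**
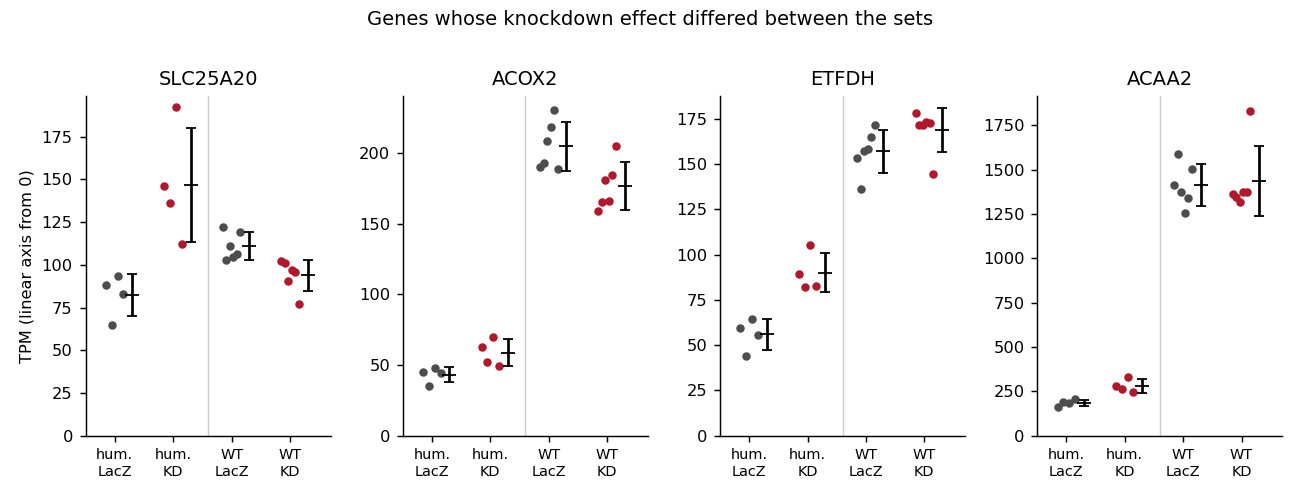
TPM of SLC25A20, ACOX2, ETFDH and ACAA2 in every liver (points, linear axis from 0) with mean ± SD beside them, for humanized (hum.) and WT mice given LacZ (grey) or HuR KD (red). SLC25A20 and ACOX2 go up in the humanized and down in the WT mice, and the values of the 2 sets come from tables that were normalized separately.

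Of the 33 genes, 14 were called in neither set and 19 in at least 1. These counts were not made over all pairs, nor was that of calls in both sets in opposite directions. The shares over all genes were 3.6% higher and 7.87% lower in humanized and 9.09% higher and 6.94% lower in WT mice. HADHA and HADHB, both called in humanized mouse livers, had interactions of 0.44 ± 0.17 (SE, adjusted p = 0.144) and 0.33 ± 0.20 (adjusted p = 0.370), so a difference between the sets was not established for them. EHHADH had the largest negative interaction (−0.53 ± 0.28 SE, adjusted p = 0.308), followed by ACADSB (−0.46 ± 0.23 SE, adjusted p = 0.272).

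The order of the 33 genes by level in control livers differed between the tables, as ranks of the mean TPM within each set. These ranks depend on the gene lengths behind the TPM, which are not given and may differ between the annotations. The part of gene length in the differences was not tested. In humanized LacZ livers ECHS1 ranked highest (704 ± 112 TPM, SD, n = 4), followed by ACADVL (227 ± 47.7), EHHADH (216 ± 54.9) and ACAA2 (187 ± 17.6), which did not differ from each other beyond their spread. In WT LacZ livers Phyh ranked highest (2677 ± 304 TPM, SD, n = 6), followed by Scp2 (1813 ± 212), Acaa2 (1412 ± 118) and Ehhadh (891 ± 155). Echs1 ranked 29 of 33 there (66.7 ± 4.08 TPM). In total 7 genes lay at least 15 places apart: ECHS1, CROT, HADHB, PDK4, ACADL, SLC25A20 and CPT2. CROT ranked 30 in the humanized and 5 in the WT livers, and PDK4 ranked 13 and 33. ACADL, the long-chain dehydrogenase, ranked 32 and 14.

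**Figure D4:**
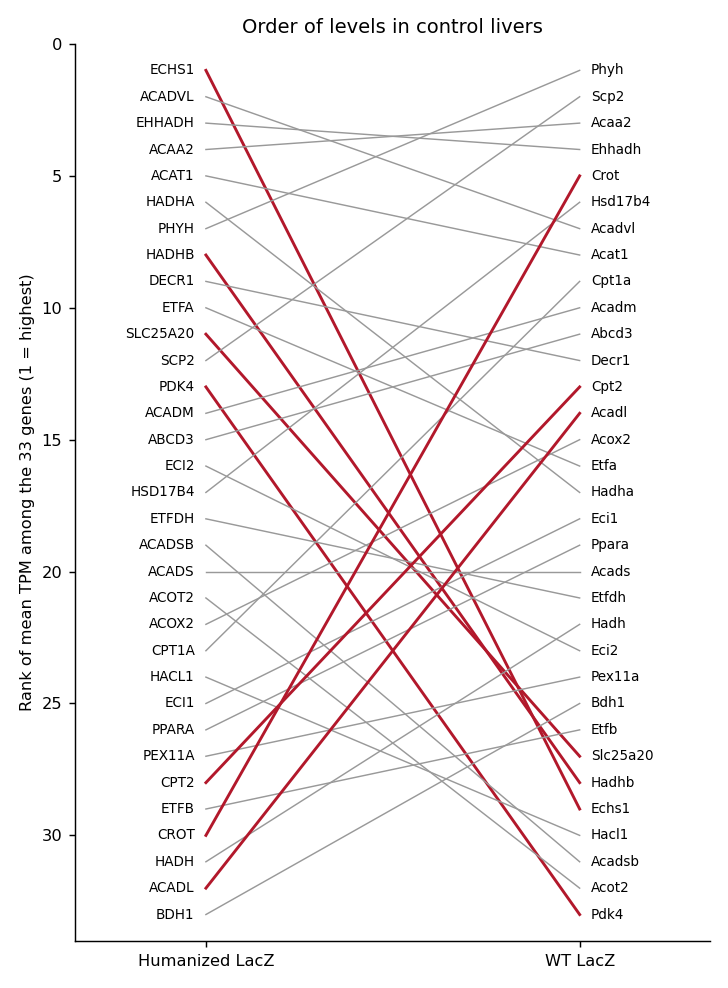
Rank of each of the 33 genes by mean TPM in humanized LacZ livers (left, n = 4) and WT LacZ livers (right, n = 6), with rank 1 at the top and genes at least 15 places apart in red. The red lines cross the plot, with ECHS1, HADHB, SLC25A20 and PDK4 going down and CROT, ACADL and CPT2 going up from left to right.

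Other genes of the pathway were read from lists beyond the 33 genes, which were also chosen with earlier results of these data known. Of 32 listed genes of fatty acid oxidation and ketone metabolism, 27 were tested in humanized mouse livers, where 10 rose and 1 fell with a median log2 fold change of 0.16, and 31 in WT mouse livers, where 5 rose and 2 fell with a median of −0.01. Over all genes, 3.6% rose and 7.87% fell in humanized and 9.09% and 6.94% in WT mouse livers. Of 22 listed PPAR alpha partners and response genes, 21 were tested in humanized mouse livers, with 5 higher and 4 lower and a median of 0.08, and 22 in WT mouse livers, with 1 higher and 0 lower and a median of 0.06. ACSL1 and ACSL5, which activate long-chain fatty acids to acyl-CoA upstream of the shuttle, rose in humanized mouse livers, ACSL1 from 316 ± 29.5 to 532 ± 56.9 TPM (SD, n = 4; log2 fold change 0.75 ± 0.14 SE, limma adjusted p = 0.0764) and ACSL5 from 60.1 ± 10.9 to 120 ± 19.9 TPM (0.98 ± 0.18 SE, limma adjusted p = 0.0686). Acsl1 fell in WT mouse livers from 561 ± 89.6 to 413 ± 43.6 TPM (SD, n = 6; −0.43 ± 0.11 SE, limma adjusted p = 0.0838). Acad10, a member of the acyl-CoA dehydrogenase family, rose there from 15.1 ± 1.06 to 19.1 ± 2.07 TPM (0.31 ± 0.08 SE, limma adjusted p = 0.0768), and Ppargc1b, a coactivator of nuclear receptors, from 5.14 ± 0.95 to 6.99 ± 0.86 TPM (0.39 ± 0.11 SE, limma adjusted p = 0.111).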

How the data were processed

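RNA from 20 livers was sequenced. By the study's methods, the authors used cutadapt for trimming, HISAT2 for alignment (for humanized mice against human and mouse genomes joined in a single index) and featureCounts for counting, and TPM were deposited. The submitters' processing notes name the builds mm10 and GRCh38. The strand setting of the counting is not given in the sources used here.

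Deposited TPM were compared as log2(TPM + 1) with limma 3.58.1 (trend, R 4.3.3) over all genes whose mean in a set reached 1 TPM, without a replicate block, and the difference between sets by an interaction term over 8192 symbol pairs. Fold changes on this scale understate changes of low genes. The call was made below an unadjusted limma p of 0.05, the study's own threshold, and Benjamini-Hochberg adjustment covered all genes or pairs tested. Exact permutation tests were two-sided. The fits were tested on simulated data. Genes beyond the 33 were named as the 2 or 3 genes of the further pathway lists with the smallest p in each set, and 1 gene that this rule gives is not reported here. The members and lists were chosen with earlier results of these data known. Whole reads were recovered from TPM steps for 18702 human and 25110 mouse genes, all that had values in 4 or more libraries, and give the depth. Same-numbered livers did not deviate together (r of −0.25 to 0.14 in humanized and −0.14 to 0.21 in WT mice), so numbers were not treated as pairs. Alternatives were a pseudocount of 0.1, no filter, median-of-ratios factors, voom on recovered reads, a block for replicate number, leaving out livers in turn, adjusted calls and, chosen after seeing the data, fits without the livers that stood apart or with them as a block. Python 3.11.15, numpy 2.4.6, pandas 2.3.3 and matplotlib 3.10.9 were used. Promoter windows are from RefSeq on GRCm38.p6.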

Additional observations from a re-analysis of the deposited data

Results flagged for a closer look

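Of 132 groups of livers and genes examined, 15 held a liver far from the rest of its group by Dixon's criterion. Chance gives this in about 1 in 20 independent groups, but genes of the same livers are not independent. The share over all genes was not taken. Of the 15, 10 came from the same liver, WT HuR KD 6. That liver was the lowest of its group for Acadl (145 TPM, the others 225 to 255), Acadm (269, the others 385 to 456), Acadsb (31.4, the others 43.5 to 49.6), Hadha (152, the others 179 to 193), Hadhb (69.3, the others 98.9 to 119), Eci1 (161, the others 178 to 187), Decr1 (186, the others 263 to 293), Etfb (78.4, the others 111 to 136) and Etfdh (145, the others 172 to 178), and the highest for Acaa2 (1833 TPM, the others 1317 to 1376). The liver was not low for mitochondrial genes alone: its average over the genes of a group, as log2(TPM + 1) relative to the mean of each gene over the WT livers, was −0.20 for mitochondrial, −0.24 for peroxisomal and −0.61 for PPAR alpha response genes, the lowest of the 12 WT livers in each. For the genes of ketone body metabolism its average was −0.04, within the range of the other WT livers (−0.23 in LacZ 4 to 0.22 in LacZ 6). WT HuR KD 6 also had the lowest median-of-ratios factor of the WT livers (0.916, the others 0.953 to 1.05). TPM of genes in general were thus lower in it, and the averages above are not corrected for this. It had the lowest median correlation of its group with the other WT livers (0.956) and 12960373 reads, the fewest of its group, and the part of depth was not tested.

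The other 5 livers set apart in this way were humanized HuR KD 2 for ABCD3 (53.2 TPM, the others 61.5 to 62.8), humanized LacZ 2 for CPT1A (71.2, the others 30.2 to 34.6) and BDH1 (2.61, the others 5.68 to 6.57), WT HuR KD 2 for Cpt1a (395, the others 465 to 485) and the shallow WT LacZ 2 for Acads (190, the others 143 to 155).

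The knockdown effect differed between humanized and WT mouse livers for 4 members by the interaction term, and for 4.99% of all pairs. The differences on the log2 scale were 1.06 for SLC25A20, 0.64 for ACOX2, 0.58 for ETFDH and 0.56 for ACAA2.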

How the results depend on the processing

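With calls at an adjusted p, 0 members were higher or lower in either set, by limma and also by voom on recovered reads (unadjusted counts 13 and 1 in humanized and 3 and 4 in WT mice by limma, 17 and 1 and 3 and 4 by voom), and with median-of-ratios factors 3 members were higher in humanized and 1 lower in WT mice. At an adjusted p, SLC25A20 and ETFDH were also higher with the humanized livers that stood apart as a block (smallest adjusted p = 0.0380), and Acox2 was lower without both such WT livers (adjusted p = 0.0474). By voom, 4.72% of all genes were higher and 5.98% lower in humanized mice at an unadjusted p. In WT mice these shares were 12.3% and 7.75%. With calls at an unadjusted p the interaction count was 11 (19.7% of all pairs). Median-of-ratios factors gave 0 members lower in humanized mouse livers (6.88% of all genes) and 9 interactions (6.48% of all pairs). Without both humanized livers that stood apart there were 7 interactions (11.8% of all pairs), and with them as a block 8 (8.57%). Without both such WT livers 7 members were higher and 2 lower (15.4% and 7.8% of all genes). Leaving out single livers gave 9 to 13 members higher and 0 to 1 lower in humanized mice, 1 to 8 higher and 3 to 4 lower in WT mice and 2 to 7 interactions. The median log2 fold change of the members ran from 0.27 to 0.40 and from 0.0023 to 0.06 in these fits.

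Replicate number as a block left 12 members higher and 1 lower in humanized mice (3.23% and 7.76% of all genes). It left 2 and 4 in WT mice (8.03% and 6.83%) and 3 interactions (3.67% of all pairs). The calls of HADHA, Acadvl and of the ACAA2 interaction (adjusted p = 0.0783) were lost, and it changed no other call. The numbers did not pair the livers.

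No called member changed direction. Uncalled members near 0 did. In humanized mice these were, with median-of-ratios factors DECR1 (0.055), ABCD3 (0.011) and BDH1 (0.039), and with voom DECR1 (0.044) and BDH1 (0.15), and without both livers that stood apart ECHS1 (−0.081) and HADH (−0.046). In WT mice these were, with median-of-ratios factors Hsd17b4 (−0.014), and with voom Etfb (0.034), and without both livers that stood apart Hadha (0.026), Acaa2 (−0.021), Decr1 (0.030) and Etfb (0.13). Leaving out single humanized livers moved ABCD3 over −0.20 to 0.063, BDH1 over −0.28 to 0.076, CROT over −0.15 to 0.74, DECR1 over −0.12 to 0.080, ECHS1 over −0.076 to 0.13 and HADH over −0.044 to 0.13. Leaving out single WT livers moved Abcd3 over −0.047 to 0.018, Acaa2 over −0.056 to 0.051, Acadm over −0.029 to 0.12, Acat1 over −0.069 to 0.016, Bdh1 over −0.010 to 0.10, Crot over −0.22 to 0.0058, Decr1 over −0.065 to 0.076, Echs1 over −0.00094 to 0.056, Eci2 over −0.050 to 0.0048, Etfb over −0.067 to 0.091, Hadha over −0.054 to 0.014, Hsd17b4 over −0.039 to 0.032 and Phyh over −0.076 to 0.020. The cause was not tested.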
